A study of Daphnia magna with 20 samples.

Results

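Females of the water flea *D. magna* at the beginning (F1) and in the middle (F2) of the intermoult cycle were compared, with 3 arrays each, which are 6 of the 20 arrays of the series. The members were chosen by their labels alone, and all probes for gene models were compared. Between F1 and F2, 6322 of 76235 tested probes changed (8.29%), of which 3477 were higher and 2845 were lower in F2. The probes higher in F2 had a median log2 difference of 3.14 and were mostly at their highest in late embryos or males among the stages outside this comparison. The probes lower in F2 had a median log2 difference of -1.91 and were most often at their highest in juveniles.

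Adult daphnids moult again and again, and a reproducing female lays a new clutch into the brood pouch soon after each moult. Through the following intermoult she carries the embryos while the epidermis prepares the next cuticle and the ovary builds up yolk and RNA for the next eggs. Moulting in crustaceans is under the control of ecdysteroid hormones, so that many transcripts of cuticle, epidermis and ovary are known to go up and down with each cycle.

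RNA was taken from the whole body of untreated females and labelled with Cy3 for single-colour arrays that held 162718 probes for 41316 gene models. The labels give an age of 15 days for F1 and 16 days for F2, whereas the design text of the series gives 14 days and less than 12 h after egg laying for F1, and 15 days and about 36 h after egg laying for F2. The rest of the series held early and late embryos (E1 and E3), juveniles of 4 days (J), females close to the next moult (F3) and males (M), with 2 arrays for M and 3 for each of the others. The study took E1 within 12 h of egg laying and E3 within the last 12 h before release. The labels give 18 days for F3, against 16 days in the design text, and 16 days for M, against 14 days in the paper. The males were born to females exposed to methyl farnesoate. The embryos had been flushed out of the brood pouch of the females, and all animals were of a single parthenogenetic clone (clone F), so the comparison carries no spread between genotypes. No label says how many animals or cultures stand behind an array, and the p-values measure only the spread between these arrays. In whole animals, a change in the amount of a tissue and a change in RNA per cell cannot be told apart. No tissue marker could be looked up, because the tables used here give no names for the gene models.

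The third F1 array stood apart from the other 5. It was the only one of the 6 on slide 1, whose arrays were scanned first, and 30.0% of its probes were above background, compared with 37.3 and 40.6% on the other F1 arrays and 39.0 to 40.3% on the F2 arrays. Its lowest processed signal was 22.3, against 3.64 to 4.07 on the other 5. Across the tested probes, which are not independent replicates, it had a Pearson r of 0.928 and 0.942 with the other F1 arrays, which had 0.98 between them. The F2 arrays had 0.983 to 0.988 among themselves, and pairs of an F1 and an F2 array had 0.85 to 0.908. The median SD of a probe was 0.316 in F1 on the log2 scale, 0.156 in F1 without the third array and 0.168 in F2. The results below are therefore given with and without this array.

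A probe was tested when its signal was above background, the percentile 95 of the random probes on each array, in every array of at least 1 stage. It was called when the adjusted p was under 0.05 and the difference was at least 1.5-fold. The calls belonged to 3068 of 28459 tested gene models (10.8%). A probe was higher in F2 in 5.83% and lower in 4.99% of the tested gene models. Of the 3068, 1649 had only probes that were higher in F2, 1410 had only probes that were lower and 9 had both. The F1 and F2 arrays did not overlap for 6319 of the 6322 called probes, compared with 38.8% of all tested probes. The median log2 difference over all tested probes was 0.05. With these 6 arrays alone in the fit, 10251 probes were called. Which direction had more calls depended on the settings, with 38.3% higher in F2 when all 6 arrays had to be above background and 49.4% with the 6 arrays alone in the fit.

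**Figure D1:**
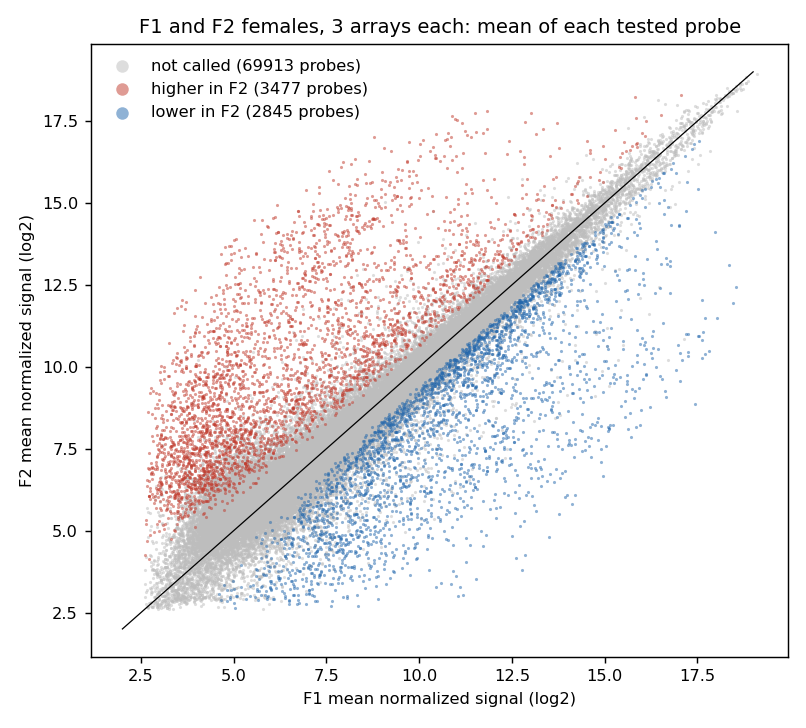
Mean normalized log2 signal of each of the 76235 tested probes in F1 (x axis) and F2 (y axis), 3 arrays each. Red points are the 3477 probes higher in F2, blue points the 2845 probes lower in F2, and the line marks equal signal. The red points reach farther from the line than the blue ones, with 431 against 147 probes that differed by at least 64-fold.

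Large differences were more frequent among the probes higher in F2. A difference of at least 4-fold was seen for 2583 higher probes of 1172 gene models and for 1368 lower probes of 622 gene models. At 16-fold or more the numbers were 1246 higher probes of 554 gene models and 529 lower probes of 245 gene models. Signal level moved with the direction. When the tested probes were ranked by mean signal into 4 bins of equal size, in the lowest bin 5.56% were called, and 68.7% of these were higher in F2. In the highest bin 12.3% were called, and 47% of these were higher.

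Some probes were detected in 1 of the groups only. Among the called probes, 277 probes of 233 gene models were well above background on all 3 F2 arrays and on none of the F1 arrays, and 37 probes of 30 gene models showed the opposite. The same counts over all tested probes are not given, so these describe the called probes only. The number seen in F1 only depends on the third F1 array, which had few probes well above background (25.3%, against 58.1 and 80.7%). On the F2 arrays this share was 61.4 to 63.6%, below that of the first F1 array (80.7%). Over the first and second F1 arrays alone, 278 called probes were seen in F2 only and 139 in F1 only. More probes were above background in every F2 array (59895) than in every F1 array (45177), whereas the first and second F1 arrays without the third had 57167.

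Without the third F1 array 4676 probes were called, 2741 higher and 1935 lower in F2. Of the probes called with all arrays, 2629 of the higher and 1853 of the lower ones were called again. The loss of calls was not particular to this array, since leaving out any of the other 5 gave 4232 to 4988 calls. The share of higher probes was 55% with all arrays and 58.6% without this array. Slides 4 and 5 each held an F1 and an F2 array, so that the difference could also be read within a slide, although these arrays are among those that made the calls and the signs are thereby fixed. For the probes higher and lower in F2 the median log2 differences were 3.11 and -1.84 on slide 4 and 3.07 and -1.78 on slide 5. The same pairs gave medians of 0.00 and -0.07 over all tested probes.

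**Figure D2:**
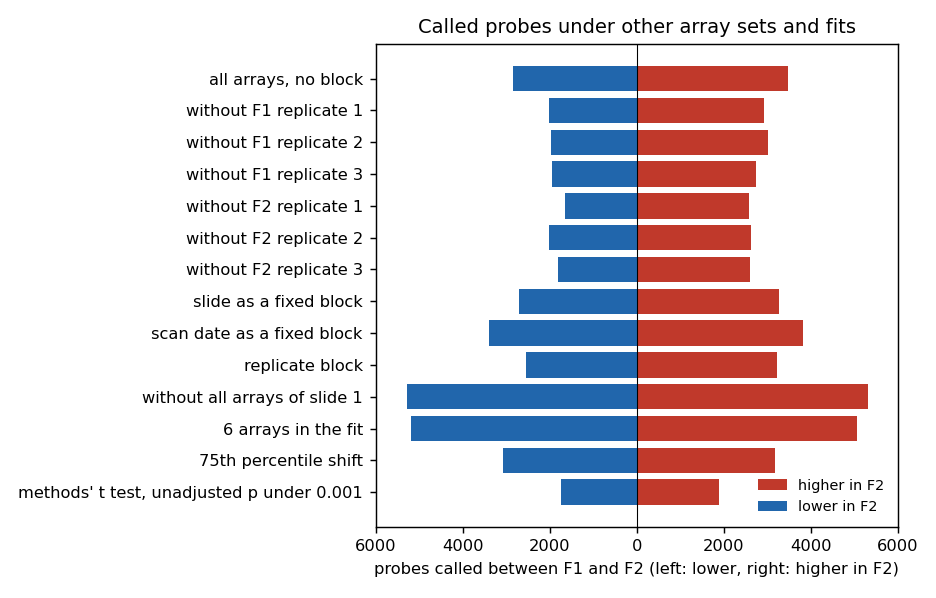
Number of probes called higher in F2 (red, to the right) and lower in F2 (blue, to the left) with all arrays, with each F1 or F2 array left out in turn, and with other blocks, array sets, scaling or test. With 1 array left out the total ranged from 4232 to 4988, and without all 4 arrays of slide 1 it was 10585.

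The random probes were generated by computer as negative controls and serve as a background measured in the same way. Of 137 random probes above background, 14 (10.2%) were called, 8 higher and 6 lower in F2, with absolute log2 differences between 1.92 and 4.31. With no filter on dim probes, 14 of all 2532 random probes were called (0.553%), compared with 3.03% of the gene-model probes. Above background, the share of random probes called was thus no lower than that of gene-model probes, 8.29%. These shares are not like for like, because the background was set from the random probes, and those above it are their brightest members. The highest F1 or F2 group mean of a called random probe was 9.76 on the log2 scale.

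Because of this background, the agreement between probes of the same gene model was examined. Up to 4 probes were designed for each gene model. Of the 2665 called gene models with at least 2 tested probes, 2346 had all tested probes on the same side of 0. A call already fixes the sign of at least 1 probe, the probes share the same arrays, and the share over all tested gene models is not given. At least 2 probes were called in 1670 gene models, in 1661 of them in 1 direction only. Among 1543 gene models with 4 tested probes and a call, all 4 were higher in 299 and all 4 lower in 233, while a single probe was called in 450. Gene models of the same locus, which can be splice forms, could also be compared. Of 1493 loci with at least 2 tested gene models, 303 had at least 1 called gene model. At 93 loci at least 2 gene models were called, all higher at 58, all lower at 17 and in both directions at 18.

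A gene model was followed further when it had at least 2 tested probes, all of them called in the same direction with and without the third F1 array and with no overlap between the groups. There were 397 such gene models higher in F2 and 239 lower. For the higher ones the median over gene models of the log2 difference was 4.88, and 95 differed by at least 64-fold. For the lower ones it was -3.18, and 25 differed by at least 64-fold. Outside F1 and F2, 228 of the 397 were highest in E3, 107 in M, 46 in F3, 14 in E1 and 2 in J. Of the 239, 123 were highest in J, 50 in M, 43 in E1, 21 in E3 and 2 in F3. Among all tested probes, counted by probe, the highest stage was E1 for 33%, E3 for 21.3%, F3 for 20.5%, M for 13.1% and J for 12.1%. The shares over all tested gene models are not given. The 2 gene models of each direction with the largest differences are described below by their identifiers, since the tables used here do not pair them with a function. The rule already fixes that their groups do not overlap and that their probes are called without the third F1 array.

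The gene model dmag2vel4f4xincok49Loc15201t1 had the largest rise. Its first probe had log2 signals of 6.04, 7.76 and 7.06 in F1 and of 15.42, 15.18 and 15.55 in F2. The F2 arrays lay close together and far above every F1 array. Its probes were well above background on 2 of the 3 F1 arrays and on all F2 arrays. The log2 difference was 8.43 ± 1.1 (SE), with an adjusted p of 0.000141 and of 0.000843 without the third F1 array. The other 3 probes differed by 8.48 to 8.83, and the median over the probes, 8.61, was 7.48 with normexp background correction. The mean over its 4 probes was 6.06 ± 0.91 in F1 (SD, n = 3) and 14.68 ± 0.16 in F2. It was 14.08 in E3, 12.27 in M, 11.62 in F3, 9.01 in J and 6.33 in E1, so that F1 and E1 were the low stages.

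The gene model velh8ptr031k27Loc27t4 was the second. The log2 signals of its first probe were 5.87, 6.48 and 2.66 in F1 and 14.07, 13.65 and 13.86 in F2. The third F1 array gave the lowest value, and no F1 array came near F2. The difference of 8.86 ± 0.83 (adjusted p = 6.46e-06) was 7.69 without that array (adjusted p = 1.14e-05). Its other probes differed by 7.24 to 8.91, and the median of 8.44 was 6.6 with normexp. Here too, F1 was well above background on 2 of 3 arrays. Over the 4 probes the mean rose from 5.35 ± 1.6 in F1 to 13.61 ± 0.23 in F2, and it was 12.0 in E3, 11.18 in M, 9.46 in F3, 5.78 in J and 4.11 in E1.

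The gene model velb9ptr063k97Loc40t1 had the largest fall by the median over its probes. Its first probe had log2 signals of 15.29, 14.98 and 14.58 in F1 and of 4.26, 8.55 and 7.16 in F2. The F1 arrays were close to each other, while the F2 arrays were spread over more than 4 log2 units below them. The log2 difference was -8.29 ± 1.4 (adjusted p = 0.000903), and -8.48 without the third F1 array (adjusted p = 0.00381). The median over its probes, -8.2, was -7 with normexp. The mean over the probes was 14.58 ± 0.31 in F1 and 6.54 ± 1.6 in F2. J (13.02) and M (13.17) were near F1, whereas E3 (6.88), E1 (5.68) and F3 (5.03) were near F2.

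The gene model velb9ptf005k47Loc357t1 was high in F1 alone. The log2 signals of its first probe were 12.93, 12.88 and 12.02 in F1 and 3.43, 4.14 and 4.90 in F2. All F1 arrays lay far above all F2 arrays, with a difference of -8.45 ± 0.70 (adjusted p = 2.87e-06) that was -8.75 without the third F1 array. This probe was well above background on 1 of the 3 F2 arrays. The median over the 4 probes, -7.97, was -5.56 with normexp, and the only probe above background in all 6 arrays differed by -6.3. On none of the F2 arrays did the fourth probe stand well above background, and it was at least 148-fold lower there. Over the 4 probes the mean was 12.25 ± 0.75 in F1 and 4.55 ± 0.28 in F2, and it lay between 3.80 in M and 5.83 in J in the other stages.

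**Figure D3:**
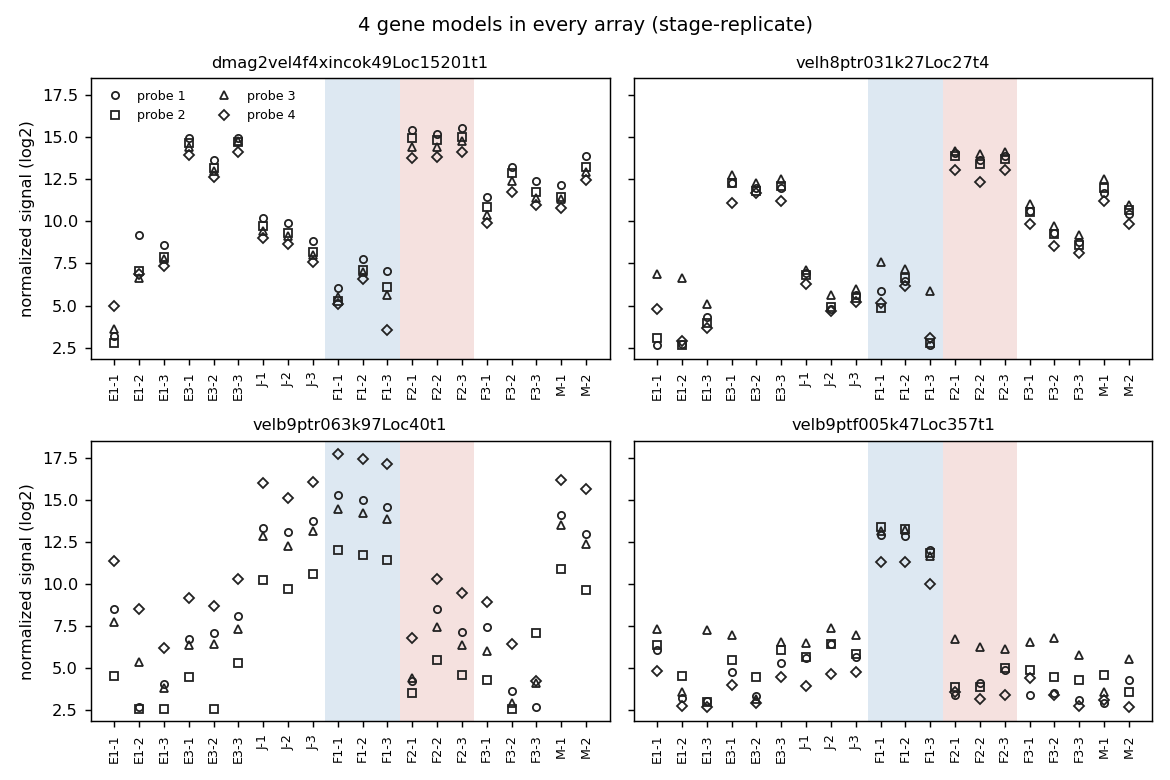
Normalized log2 signal (y axis) of the 4 probes (symbols) of 4 gene models in each of the 20 arrays (x axis, stage and replicate), with F1 shaded blue and F2 shaded red. The gene models of the upper row are low in F1 and high in F2, E3 and M, and those of the lower row are high in F1 and low in F2, the left one also high in J and M.

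The same order of stages was examined for all called probes. The level of each probe was set relative to the midpoint between its F1 and F2 means. The calls fix on which side of it F1 and F2 lie, so only the other stages are described. For the probes higher in F2 the median level was 2.16, 1.88 and 1.90 in the E3 arrays, 1.29 and 1.57 in the M arrays and 0.76, 1.34 and 1.17 in the F3 arrays. These stages were on the side of F2. It was -0.53, -0.73 and -0.99 in J and -2.18, -1.86 and -1.43 in E1, on the side of F1. The stage with the highest mean was E3 for 49.4% and M for 27.6% of these probes, compared with 21.3 and 13.1% of all tested probes.

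For the probes lower in F2 the median level was 0.93, 0.91 and 1.15 in the J arrays and 0.51 and 0.48 in the M arrays, on the side of F1. The F3 arrays, with -0.50, -0.97 and -0.95, and the E1 arrays, with -1.30, -0.97 and -1.20, were on the side of F2. The E3 arrays lay on both sides, with -0.24, 0.37 and 0.18. J was the highest stage for 42.4% of these probes, compared with 12.1% of all tested probes, and F3 for 0.738%, compared with 20.5%. M was thus on the side of F2 for the probes that were higher in F2 and on the side of F1 for those that were lower.

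**Figure D4:**
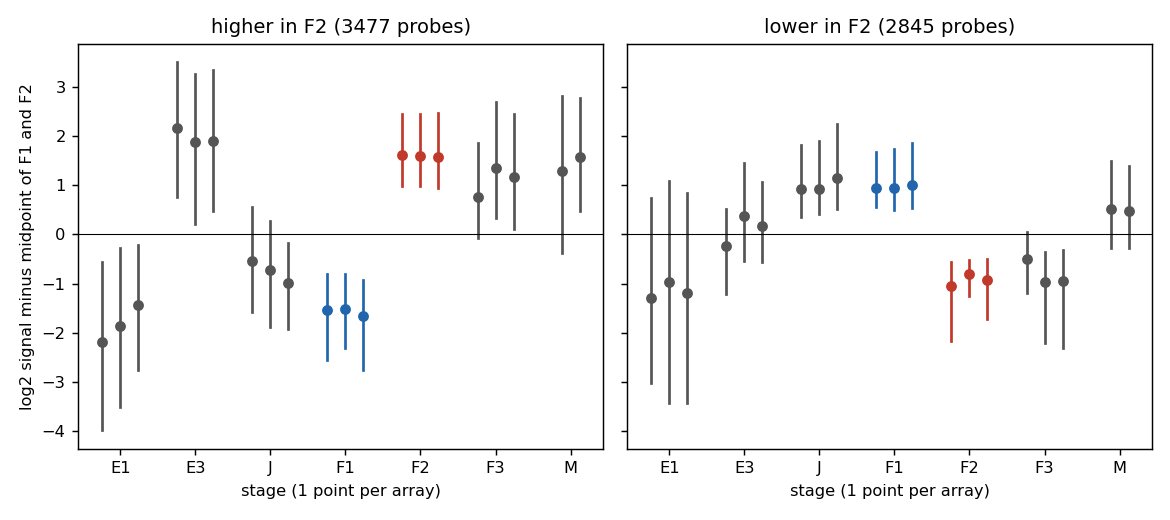
Median (points) and quartiles (lines) over the called probes of the log2 signal minus the midpoint of the F1 and F2 means, for each array of the 7 stages. For the 3477 probes higher in F2 (left) the E3, F3 and M medians are above 0 and those of E1 and J below, and for the 2845 probes lower in F2 (right) those of J and M are above 0 and those of F3 and E1 below.

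Part of the calls were probes at which F1 or F2 had the highest mean of all stages. The calls already fix which of F1 and F2 is higher, and the share over all tested probes is not given, so the counts are a description only. The F2 mean was above the means of all other stages for 1053 probes of 556 gene models (30.3% of the probes higher in F2), by at least 4-fold for 67 probes. The F1 mean was above all other stages for 879 probes of 484 gene models (30.9% of those lower in F2), by at least 4-fold for 27 probes.

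Lists of probes that were higher in E1, E3, J or M than in each of the other 3 of these stages were then read in F1 and F2. The F1 and F2 means were not compared in choosing these probes, but their arrays took part in the normalization, the filter and the estimate of the spread. Of the 3469 probes of the E3 list (4.55% of the tested probes), 516 were higher in F2 (14.9%) and 37 were lower (1.07%), compared with 4.56 and 3.73% of all tested probes, and the median log2 difference was 0.21. This median was 0.10 with a 75th percentile shift and 0.04 when all 6 arrays had to be above background. The E3 list had a median log2 signal of 7.56, 7.64 and 7.60 in the F1 arrays and of 7.98, 8.15 and 8.07 in the F2 arrays. The F2 arrays lay above all F1 arrays, and both groups were far below E3 (10.08 to 10.10).

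Of the 2042 probes of the M list (2.68% of the tested probes), 218 were higher in F2 (10.7%) and 64 were lower (3.13%). Over all tested probes these shares were 4.56 and 3.73%. The median log2 difference of the list was 0.18, which was 0.03 with the shift and 0.09 with that filter. The median log2 signal of the list was 7.79, 7.70 and 7.56 in F1 and 8.03, 7.94 and 7.88 in F2, compared with 10.44 and 10.14 in M. The groups did not overlap, although the gap between them was small.

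The J list moved the other way in its calls, with 7 of 1587 probes (2.08% of the tested probes) higher in F2 (0.441%) and 176 lower (11.1%). Its median log2 difference was 0.09, of the opposite sign to the calls, while its percentile 5 was -2.89. The median turned to -0.10 with slide and to -0.08 with scan date as a block. The median log2 signal was 9.93, 10.06 and 10.25 in F1, 9.71, 9.69 and 9.74 in F2 and 9.48 to 9.66 in J. By these array medians both groups of females were at or above the level of juveniles for this list, and F1 was above F2. The median of the differences taken probe by probe had the opposite sign, so the direction of the list as a whole was not settled.

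The E1 list was read because F1 females had just laid eggs. It cannot tell embryos left in the brood pouch from RNA of the mother, as the study proposes a maternal origin for many E1 transcripts. Of the 14565 probes of this list (19.1% of the tested probes), 79 were higher (0.542%) and 440 were lower in F2 (3.02%). Over all tested probes these shares were 4.56 and 3.73%. The share of lower calls was thus not above that of all tested probes, and only the higher calls were few. The median log2 difference was -0.10. The median log2 signal was 8.98, 8.98 and 9.01 in F1 and 8.84, 8.82 and 8.85 in F2, compared with 10.59 to 10.62 in E1, 9.10 to 9.28 in F3 and 8.32 to 8.56 in M. F1 was thus above F2 by a small step in every array, and the part of embryos in this difference was not tested.

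**Figure D5:**
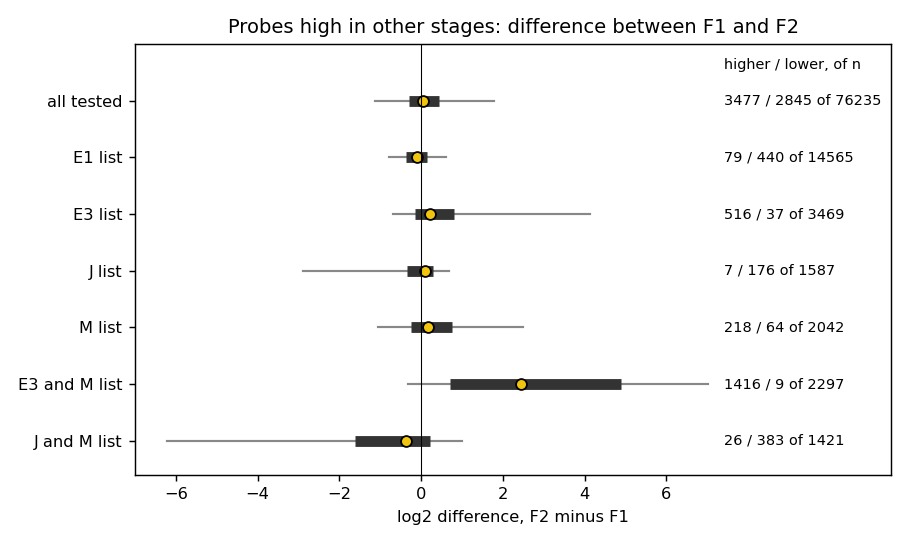
Log2 difference between F2 and F1 for all tested probes and for probes high in other stages: the point is the median, the thick line runs between quartiles and the thin line from percentile 5 to 95. At the right are the probes called higher and lower in F2. The E3 and M list, chosen after its values were seen, lies almost wholly to the right, with a median of 2.44.

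Both the E3 and the M list had more higher than lower calls, and 2 more lists were added after these values had been seen, so they are given as a description with no test. The probes higher in both E3 and M than in both E1 and J numbered 2297 (3.01% of the tested probes). Of these, 1416 were higher in F2 (61.6%) and 9 were lower (0.392%), with a median log2 difference of 2.44. The 1416 probes made up 40.7% of all probes higher in F2. When all 6 arrays had to be above background, 538 probes of the list were higher and 9 lower, with a median of 1.18. The median log2 signal of this list was 6.84, 6.99 and 6.91 in the F1 arrays and 9.72, 9.78 and 9.75 in the F2 arrays. It was 9.68, 10.06 and 9.96 in F3, 11.24, 10.92 and 11.00 in E3, 11.03 and 10.76 in M, 7.17 to 8.06 in J and 5.16 to 6.10 in E1. Every F1 array was lower than every J array, and the F2 arrays lay within the range of the F3 arrays. The list held probes of 1243 gene models. Counting all their tested probes, in the list or not, 741 had calls only higher in F2 and 12 only lower.

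The probes higher in both J and M than in both E1 and E3 numbered 1421 (1.86% of the tested probes), of which 26 were higher in F2 (1.83%) and 383 were lower (27%). Their median log2 difference was -0.38, and they made up 13.5% of all probes lower in F2. The median log2 signal was 10.52, 10.43 and 10.32 in F1 and 9.14, 9.31 and 9.20 in F2. It was 8.94, 8.83 and 8.70 in F3, 9.54 to 9.70 in J and 10.22 on both M arrays, so that F1 was the highest stage and F2 lay between J and F3. The list held probes of 795 gene models. Counting all their tested probes, in the list or not, 206 had calls only lower in F2 and 29 only higher.

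The called members of these added lists changed more than the other calls. The 1416 probes of 726 gene models had a median log2 difference of 4.27, compared with 2.61 for the 2061 other probes higher in F2. The 383 probes of 201 gene models had a median of -3.98, compared with -1.71 for the 2462 other probes lower in F2. The 2061 other probes had median log2 signals of 5.98 to 6.18 in F1 and 9.07 to 9.13 in F2, and here F3 (8.19 to 8.56) lay between the groups, while E3 was at 9.13 to 9.26 and M at 8.40 and 8.81.

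Without the third F1 array the lists gave the same direction of calls. The E3 list had 429 probes higher in F2 and 20 lower, the M list 161 and 47, the J list 4 and 156 and the E1 list 49 and 241. The added lists had 1299 and 5 for E3 and M, and 12 and 332 for J and M. The number of E1 probes lower in F2 thus went from 440 to 241 when this array was left out, and it was 182 to 269 when any 1 of the 6 arrays was left out.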

How the data were processed

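For each single-colour Agilent array the authors deposited spot intensity on a linear scale, extracted with Feature Extraction (version 10.5.1.1 in the files), whose processed signal is already corrected for background. They also deposited a matrix of log2 values, which matched quantile-normalized log2 signals with each probe centred on its median (r of at least 0.99977) and was used as an alternative.

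Spots that are controls or carry an outlier flag were dropped, but not saturated ones. Log2 processed signals were averaged per probe and quantile normalized over the 20 arrays. All 20 arrays entered 1 fit of limma 3.58.1 (lmFit, eBayes; R 4.3.3) with 7 stages and no block, and p-values were adjusted by Benjamini-Hochberg over 76235 probes. The methods of the study name a t test with unadjusted p under 0.001, which was run as an alternative. On simulated data with 200 of 76235 probes changed by 2 log2 units, the same fit recovered 47% and called 6 other probes. The simulation changed far fewer probes than were called in the data and drew the noise of each array independently. It therefore checks the fit only and does not give the recovery or the false calls of the real comparison. Precision is limited by the number of arrays.

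A fold is a lower bound where no array of the dimmer group had the probe well above background. The brighter mean was then set against the dimmer arrays, with each value raised to at least the weakest well-above-background signal of that array. Gene models named were the 2 with the largest median difference in each direction among those that met the rule given in the text. Members and lists were chosen with earlier results of these data known. The table of gene names matched 0 gene models, so lists by product could not be made and probe sequences were not used here. F1 and F2 arrays of the same replicate number did not deviate together (r of 0.0451, 0.00492 and -0.0366), so the numbers were not taken as pairs. Alternatives changed the normalization, background correction, filter, test, arrays in the fit, blocks and fold limit, and each array was left out in turn. Lists kept the same members throughout.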

Additional observations from a re-analysis of the deposited data

How the results depend on the processing

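The number of calls depended on which arrays entered the fit, on the filter and on the test. The 6322 called probes became 10081 with quantile normalization and fit on the 6 arrays, 10251 with the 6 arrays alone in the fit, 10445 with the 9 female arrays, 3641 when all 6 arrays had to be above background and 3626 with the methods' t test (unadjusted p under 0.001). Without all arrays of slide 1 there were 10585. In alternatives chosen after seeing the data there were 11318 without slide 1 and with female arrays alone, and 10251 when arrays were normalized without slide 1. In the same order the 3068 gene models became 4996, 5075, 5182 and 1901, and, without slide 1, 5327, 5663 and 5250. With at least 2 called probes required there were 1664. With 1 array left out the calls ranged from 4232 to 4988 probes (lowest without F2 replicate 1, highest without F1 replicate 2) and from 2127 to 2613 gene models. The cause of these differences was not tested. The median log2 difference over all tested probes, 0.05, was -0.05 with the 75th percentile shift and -0.07 with slide as a fixed block.

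The share of calls higher in F2, 55%, passed below 50% with quantile normalization over the 6 arrays (49.3%), the 6 arrays in the fit (49.4%), all 6 arrays above background (38.3%), the same t test after Benjamini-Hochberg adjustment (48.1%) and female arrays without slide 1 (49.4%). So which direction has more calls was not settled. It was 50.7% with a 75th percentile shift, 56.7% with normexp, 61.1% with no filter, 60.4% with the filter on well-above-background flags, 51.8% with 9 female arrays, 53.7% with slide as a random block, 53.1% with scan date as a block, 52.0% with the unadjusted t test, 59.8% with a 2-fold limit, 50.2% without slide 1 and 50.4% when normalized without it. With 1 array left out it ranged from 56.8 to 61.1%. With the replicate block 5773 probes were called, 3237 higher and 2536 lower.

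For the lists, values are given in the order of 6-array normalization, 6 arrays in the fit, 9 female arrays, without slide 1, without slide 1 with females alone, and normalized without slide 1. E1 list probes higher in F2 (79) became 158, 158, 179, 175, 170 and 175, and those lower (440) became 820, 844, 922, 945, 1002 and 932. E3 list probes lower (37) became 86, 89, 88, 79, 90 and 75. J list probes higher (7) became 35, 38, 35, 20, 30 and 18. M list probes lower (64) became 113, 116, 125, 119, 135 and 114. When all 6 arrays had to be above background, the higher probes were 38 in the E1 list, 185 in the E3 list, 2 in the J list and 116 in the M list, and 100 of the J list were lower. In the E3 and M list the higher probes (1416) became 538 with this filter and 881 with the unadjusted t test. With the unadjusted t test, higher and lower probes were 43 and 237 (E1), 260 and 12 (E3), 4 and 103 (J) and 111 and 40 (M). With no filter, 161 of the E1 list and 19 of the E3 list were lower and 3 of the J list were higher. The J list had 16 higher with normexp and 17 with the adjusted t test, and the E1 list 176 lower with a 2-fold limit. With 1 array left out, higher and lower probes ranged from 47 to 81 and 182 to 269 (E1), 410 to 456 and 16 to 34 (E3), 4 to 12 and 143 to 156 (J) and 151 to 189 and 41 to 49 (M). The median log2 difference of the E1 list (-0.10) was -0.15 with the 75th percentile shift, and that of the J list (0.09) was 0.02. The latter was -0.0965 with slide and -0.0757 with scan date as a fixed block. That of the E3 and M list (2.44) was 1.61 with normexp, 2.8 when every F1 or every F2 array and 1.18 when all 6 arrays had to be above background. In each of the E1, E3, J and M lists the direction with more calls was the same in all of these.

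With the unadjusted t test, not every probe stayed called in velh8ptr031k27Loc27t4 (log2 difference 8.44) and in velb9ptr063k97Loc40t1 (-8.2). When all 6 arrays had to be above background, dmag2vel4f4xincok49Loc15201t1 and velh8ptr031k27Loc27t4 had no probe left to test. Dim probes limit the counts of transcripts seen in 1 group alone, which rest on signal over background. The count for F1 alone rests also on the third F1 array.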
